A study of Rattus norvegicus with 4 samples.

Results

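A set of 34 genes of the hypoxia response and of glycolysis was followed across the cell classes of rat lumbar dorsal root ganglia and between animals with and without an ischaemia and reperfusion injury of the limb. The genes were taken from a fixed list of symbols and matched to the deposited gene table by name. Of the 34 symbols, 33 matched a feature among the 25629 in the table, and Gapdh is not analysed here. They fall into 5 oxygen-sensing genes (Hif1a, Epas1, Egln1, Egln3, Kdm3a), 2 glucose transporters (Slc2a1, Slc2a3), the enzymes of glycolysis from hexokinase to lactate dehydrogenase (Hk1, Hk2, Gpi, Pfkl, Pfkp, Aldoa, Aldoc, Tpi1, Pgk1, Pgam1, Eno1, Pkm, Ldha), 3 regulators of glycolytic flux (Pfkfb3, Pfkfb4, Pdk1) and 10 other hypoxia targets (Bnip3, Bnip3l, Ndrg1, Ankrd37, Car9, Adm, P4ha1, P4ha2, Ddit4, Mxi1).

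Dorsal root ganglia hold the cell bodies of sensory neurons, each wrapped by satellite glia, together with Schwann cells, vessels and resident immune cells. Ganglia L4 to L6 of one side were taken from wild-type male Sprague-Dawley rats, dissociated with enzymes and captured on the BD Rhapsody microwell system, which counts messenger RNA molecules by unique molecular identifiers (UMIs). The CPIP group (chronic post-ischaemia pain, a model in which a hind limb is made ischaemic and then reperfused) and the Sham group were represented by 2 libraries each, and each library pooled the ipsilateral ganglia of 3 rats. Neither the age of the rats nor the time after the procedure is stated in the labels. Because every library is a pool, the spread between libraries is a spread between pools and not between animals.

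When oxygen falls, the prolyl hydroxylases encoded by Egln1 and Egln3 mark less of the HIF-alpha subunits for degradation. Those subunits, the products of Hif1a and Epas1, then accumulate as proteins and switch on glucose transporters, glycolytic enzymes and genes that spare mitochondrial respiration. Much of this control acts on protein stability, so the messenger RNA of Hif1a itself is not a measure of HIF activity. In nervous tissue, glia and vessels are held to take up glucose and pass lactate to neurons, which makes the distribution of these genes over cell classes a question of its own.

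The 4 libraries held between 11829 and 12828 cell barcodes and between 60885664 and 64550637 UMIs, and 10667 to 11566 cells per library were retained. No more than 5 barcodes were shared by any pair of libraries. Clusters were named from lists of marker genes, so that a class name means likeness in those markers, and the hypoxia and glycolysis genes were kept out of the clustering. In all, 11 classes were large enough to be compared between groups, led by satellite glia with 11162 cells and neurons with 10512. A glia cluster led by Prrg4, Gbp2 and Ccl2 scored highest for satellite glia markers but was led by other genes and was left unnamed, and the cluster of cycling cells was also led by the haemoglobin genes Hba-a1 and Hbb. The non-myelinating Schwann class scored 0.888 for its own markers and 0.946 for those of myelinating Schwann cells. It took its name from 3 of its own markers among its leading genes. One library stood apart. In the sums over all retained cells, CPIP 2 exceeded each of the other 3 libraries by more than 1.5 times in 369 of 9884 genes with at least 5 CPM (UMI counts scaled to the usual common total), that is 3.73%, against 14 such genes in CPIP 1 and 7 in each Sham library.

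HIF binds a short core, ACGTG or GCGTG, and the promoters of 29 of the 33 genes were present in a RefSeq table for the rat assembly GRCr8, which gives the 300 bases from 250 before to 50 after each start site. Bnip3l, Ndrg1, Pgk1 and Slc2a3 were not among them. The promoters of Ldha, Slc2a1 and Aldoc are printed because these 3 genes had their highest level in 3 different classes (neurons, endothelial cells and satellite glia) while all 3 hold the core. They lie at chr1:106507842-106508141, chr5:138002272-138002571 and chr10:63715294-63715593, all on the plus strand. Capitals mark every match to the core on either strand, and the run CACGTG in Ldha is a match on both strands.
Ldha: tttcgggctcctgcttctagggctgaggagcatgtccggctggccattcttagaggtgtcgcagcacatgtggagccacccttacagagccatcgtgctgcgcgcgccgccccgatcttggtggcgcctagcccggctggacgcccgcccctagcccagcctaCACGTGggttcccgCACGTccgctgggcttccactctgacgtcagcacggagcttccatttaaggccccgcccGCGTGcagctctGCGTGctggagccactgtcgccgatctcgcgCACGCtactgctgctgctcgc
Slc2a1: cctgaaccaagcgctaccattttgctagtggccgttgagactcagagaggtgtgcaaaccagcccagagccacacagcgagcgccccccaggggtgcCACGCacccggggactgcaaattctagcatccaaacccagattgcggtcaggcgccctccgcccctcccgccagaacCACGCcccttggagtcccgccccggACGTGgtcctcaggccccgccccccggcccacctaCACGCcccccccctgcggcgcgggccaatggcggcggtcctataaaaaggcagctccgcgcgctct
Aldoc: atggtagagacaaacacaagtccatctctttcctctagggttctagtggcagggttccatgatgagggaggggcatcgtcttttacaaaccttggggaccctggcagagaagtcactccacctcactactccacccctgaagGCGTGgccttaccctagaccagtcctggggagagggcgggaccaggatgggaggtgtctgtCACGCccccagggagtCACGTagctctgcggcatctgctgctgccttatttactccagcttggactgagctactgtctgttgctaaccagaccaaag
Ldha held 6 matches, Slc2a1 held 4 and Aldoc held 3. Of the 29 genes, 22 had the core in at least 1 promoter, and Adm, Egln3, Epas1, Hk2, Pfkfb4, Pkm and Tpi1 had none within this window. The core was present in 67.6% of the 34 promoters of these genes, against 41.6% of the 33469 promoters of the table. The palindrome CACGTG, which overlaps the core, was present in 14.7% against 6.4%. The promoters of these genes also had a median G and C content of 65.7%, against 51.7% over the table, and the part of base composition in the motif share was not tested. Among genes with their highest level in neurons 9 of 11 held the core, and among the rest 13 of 18 did, so the core did not separate the neuronal genes from the others by count.

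Across the classes, the enzymes of glycolysis were led by neurons, while the oxygen sensors and the transporters were led by glia, vessels or macrophages. Of the 10 other hypoxia targets, 5 were led by those classes, and Bnip3 and Bnip3l were led by neurons, Adm and P4ha2 by fibroblasts and Car9 by cycling cells. Levels across classes are given as CPM, reckoned on all UMIs of the class in a library, as mean ± SD over the 4 libraries of both groups, and they are compared between classes within a gene only. Of the 33 genes, 13 had their highest mean in neurons, 4 in endothelial cells, 4 in macrophages, 3 in satellite glia, 2 each in smooth muscle, pericytes, myelinating Schwann cells and fibroblasts, and 1 in cycling cells. Of the 13 glycolytic enzymes matched, 11 were highest in neurons, and the exceptions were Hk2 and Aldoc.

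**Figure D1:**
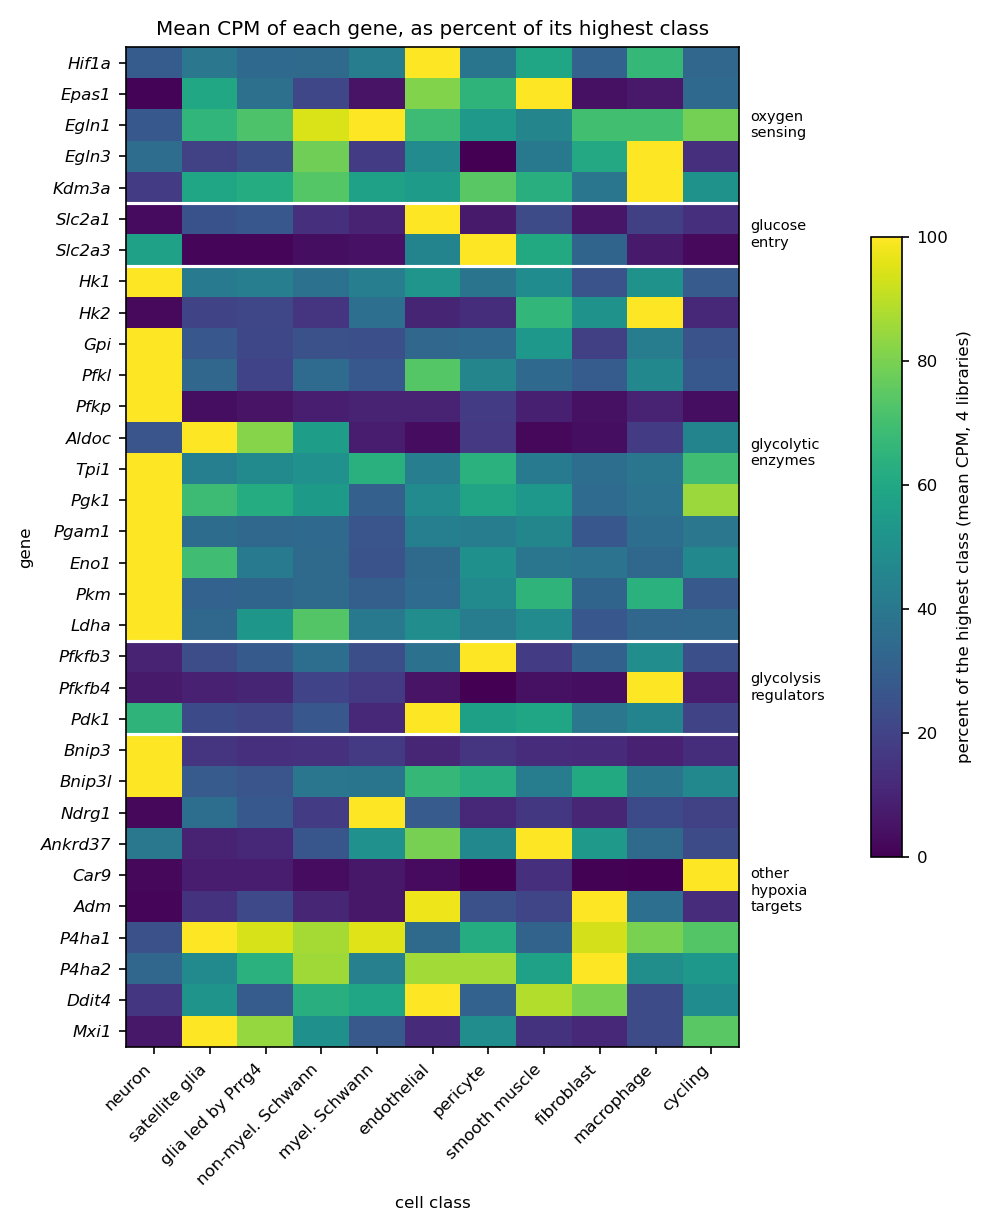
Mean CPM over 4 libraries of 32 genes (rows, grouped by role) in 11 cell classes (columns), with the colour giving the percent of the class where the gene is highest. Aldoa, at 10 UMIs in all, is left out. The neuron column holds the highest level of 11 of the 13 enzymes matched, Aldoa included, while Slc2a1 peaks in endothelial cells, Ndrg1 in myelinating Schwann cells, and Aldoc and Mxi1 in satellite glia.

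The messenger RNA of the 2 HIF-alpha genes was highest in different classes, with endothelial cells among the leading ones for both. Hif1a, the broadly expressed subunit, was highest in endothelial cells at 91.1 ± 5.63 CPM, with 85.0 and 87.8 CPM in the CPIP libraries and 94.2 and 97.2 CPM in the Sham libraries, and next in macrophages at 60.5 ± 10.7 CPM and smooth muscle at 53.9 ± 8.89 CPM. Only the endothelial level stood clear of its neighbour. Below these, Hif1a lay between 38.2 ± 12.9 CPM in myelinating Schwann cells and 26.6 ± 2.65 CPM in neurons, and satellite glia (35.9), pericytes (35.3), non-myelinating Schwann cells (31.6), the Prrg4-led glia (31.0), cycling cells (29.9) and fibroblasts (28.5) in between did not differ beyond their spread.

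Epas1, which encodes HIF-2alpha, ran over a far wider range and was a gene of vessels and satellite glia. It stood at 470 ± 46.5 CPM in smooth muscle, 381 ± 17.0 in endothelial cells, 306 ± 44.8 in pericytes and 281 ± 25.3 in satellite glia, and of these only pericytes and satellite glia overlapped. The Prrg4-led glia had 174 ± 2.31 CPM, cycling cells 161 ± 18.9 and non-myelinating Schwann cells 99.7 ± 13.7. Macrophages (31.6 ± 13.2), myelinating Schwann cells (25.3 ± 12.7) and fibroblasts (21.0 ± 5.26) came next without separation, and neurons were lowest at 3.68 ± 0.73 CPM. The smooth muscle class held 140 ± 57.6 CPM of the endothelial marker Pecam1, against 291 ± 10.7 CPM in endothelial cells, and the part of that signal in its Epas1 level was not tested.

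Of the 3 other sensors, Egln1 and Kdm3a varied far less between classes than Epas1, and Egln3 was sparse. Egln1, the main oxygen-sensing prolyl hydroxylase, ranged from 117.4 ± 19.95 CPM in myelinating Schwann cells to 32.3 ± 3.37 CPM in neurons with every neighbour in the order overlapping. Egln3, an inducible hydroxylase, was low throughout: 8.98 ± 5.17 CPM in macrophages, 7.03 ± 1.72 in non-myelinating Schwann cells, 5.43 ± 2.19 in fibroblasts, 4.32 ± 1.69 in endothelial cells, 3.64 ± 1.19 in smooth muscle and 3.20 ± 0.52 in neurons. It was lower still in the Prrg4-led glia (2.17 ± 0.67), satellite glia (1.77 ± 0.29), myelinating Schwann cells (1.54 ± 1.97) and cycling cells (1.20 ± 2.39), and no neighbours in this order separated. Pericytes gave 0 Egln3 UMIs, which at their depth allows up to 23.9 CPM in the shallowest library (3 UMIs, counting error only). Kdm3a, an oxygen-dependent histone demethylase, was highest in macrophages at 58.5 ± 17.2 CPM and lowest in neurons at 10.2 ± 1.30 CPM, and neurons stood clear of the class above them.

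**Figure D2:**
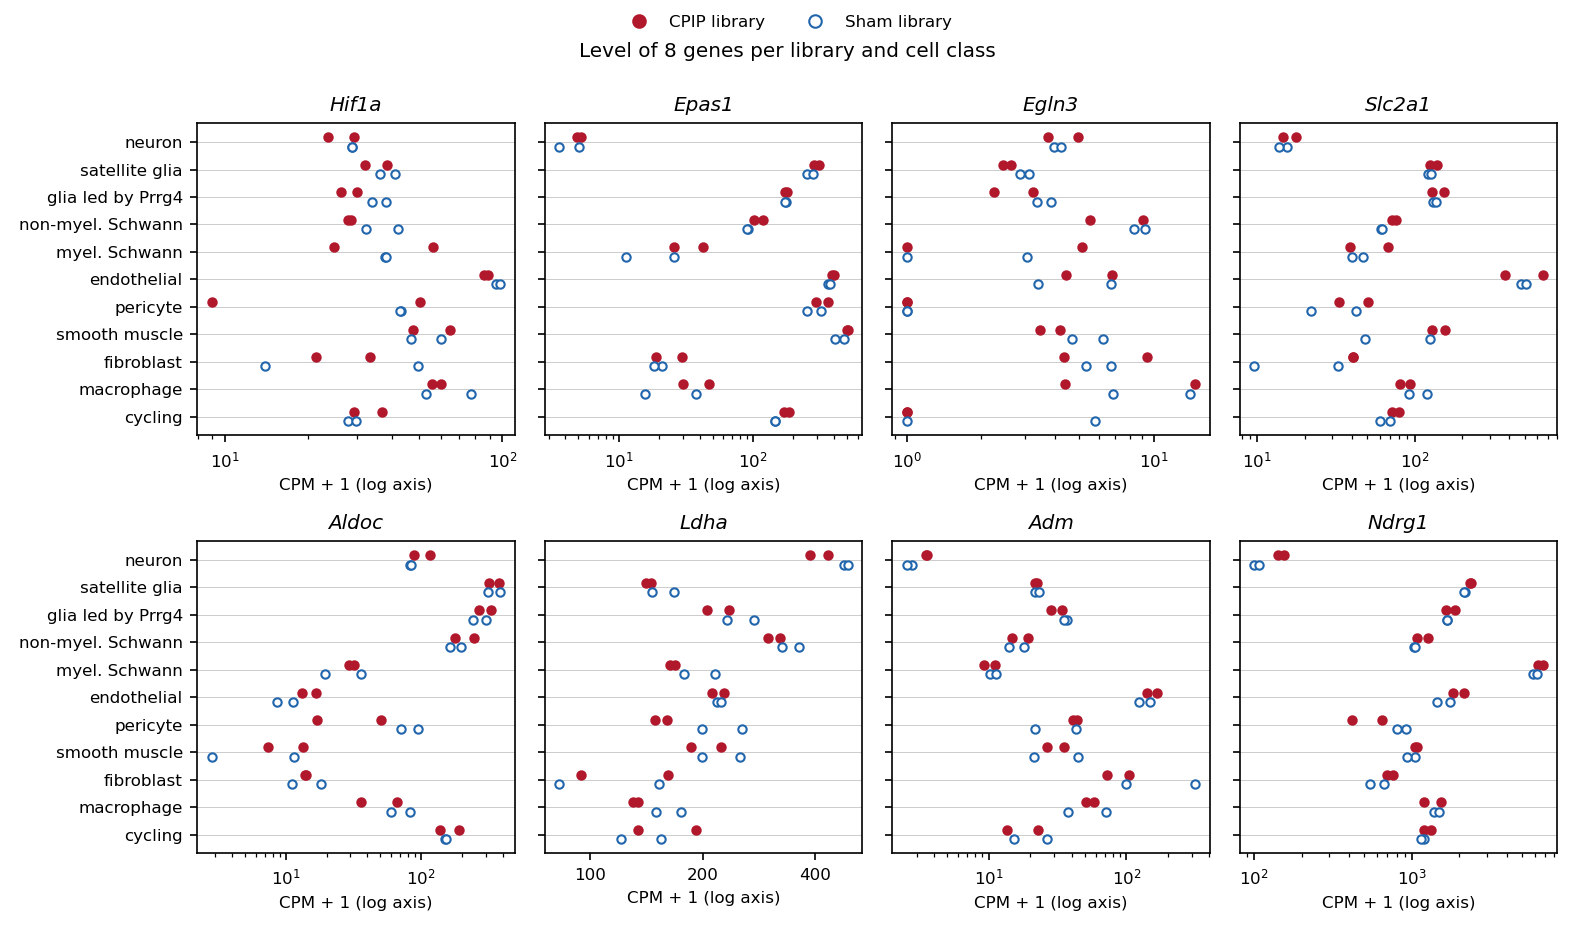
CPM + 1 on a log axis for 8 genes in 11 cell classes, with 1 point per library (filled red, CPIP, drawn above; open blue, Sham, drawn below). For Epas1 and Ndrg1 the spread between classes exceeds that between groups: Epas1 runs from 3.68 CPM in neurons to 470 CPM in smooth muscle and Ndrg1 from 125 to 6271 CPM. The libraries of a class lie apart in places, as for Adm in fibroblasts (147 ± 112 CPM) and Slc2a1 in endothelial cells (500 ± 114 CPM).

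Glucose entry was split between the 2 transporters. Slc2a1 encodes GLUT1, the transporter of barrier endothelium, and endothelial cells held 374 and 648 CPM in the CPIP libraries and 469 and 510 CPM in the Sham libraries. Their mean of 500 ± 114 CPM stood clear of all other classes: 136 ± 10.8 in the Prrg4-led glia, 126 ± 7.32 in satellite glia, 113 ± 46.1 in smooth muscle and 95.5 ± 17.0 in macrophages, which overlapped one another in turn. Slc2a1 was lower in cycling cells (69.2 ± 8.06), non-myelinating Schwann cells (66.8 ± 7.32), myelinating Schwann cells (47.4 ± 13.4), pericytes (36.0 ± 12.3) and fibroblasts (29.7 ± 14.6), and lowest in neurons, at 14.3 ± 1.74 CPM. Slc2a3 encodes GLUT3, the high-affinity transporter known from neurons, and here it was highest in pericytes at 228 ± 37.1 CPM, ahead of smooth muscle at 138 ± 16.6 and neurons at 130 ± 9.01. Satellite glia had 3.58 ± 0.52 CPM of Slc2a3, the lowest of the 11 classes.

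Within the enzymes, Pfkp, the platelet-type phosphofructokinase that catalyses the committed step, stood out in neurons. It had 517 and 487 CPM in CPIP neurons and 573 and 513 CPM in Sham neurons, and the next class, pericytes, had 92.7 ± 19.7 CPM. Elsewhere Pfkp stood at 3.82% to 17.7% of its neuronal level, against 2.82% to 14.0% for the neuron markers Snap25, Tubb3 and Prph. Class by class it was above all 3 markers in 8 of 10 classes, as in endothelial cells at 9.84% against 4.54% to 5.66%, and within their range in fibroblasts and cycling cells, where its level is read as background. In satellite glia the margin was small, at 3.82% against 3.05% to 3.57%, and how much of the Pfkp outside neurons is neuronal RNA was not tested. The liver-type subunit Pfkl was low, at 11.4 ± 10.2 CPM in neurons, and overlapped between all neighbouring classes.

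Most of the other enzymes were neuron-led but shared. Pgam1 (phosphoglycerate mutase) had 1022 ± 88.6 CPM in neurons, against 467 ± 41.8 in smooth muscle, the next class. Tpi1 (triosephosphate isomerase, 382 ± 20.7 against 264 ± 37.8 in cycling cells), Pkm (pyruvate kinase, 329 ± 22.1 against 214.8 ± 33.97 in smooth muscle), Pgk1 (phosphoglycerate kinase, 299 ± 15.3 against 254 ± 18.8 in cycling cells), Eno1 (enolase 1, 118 ± 12.5 against 81.5 ± 11.6 in satellite glia) and Hk1 (hexokinase 1, 106 ± 23.2 against 55.3 ± 12.2 in endothelial cells) followed the same pattern with separated ranges. Gpi (glucose-6-phosphate isomerase, 64.9 ± 21.8 CPM in neurons) overlapped smooth muscle. In the classes outside neurons these 6 enzymes, without Gpi, stood at 25.6% to 85.0% of the neuronal level, well over the 2.82% to 14.0% of the neuron markers.

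Ldha, the lactate dehydrogenase subunit that favours lactate formation, separated neurons and non-myelinating Schwann cells from the rest. It had 433 and 387 CPM in CPIP neurons and 475 and 487 CPM in Sham neurons (445 ± 45.6), and 326 ± 25.4 CPM in non-myelinating Schwann cells, each clear of the class below. The Prrg4-led glia (236 ± 28.8), endothelial cells (219 ± 7.07), smooth muscle (214 ± 29.1), pericytes (190 ± 47.2) and myelinating Schwann cells (181 ± 23.6) overlapped in turn. Cycling cells (149 ± 30.9), satellite glia (149 ± 11.7), macrophages (146.3 ± 20.03) and fibroblasts (122 ± 40.1) were lowest.

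Aldolase C was the glial enzyme. Aldoc had 317 and 378 CPM in CPIP satellite glia and 312 and 383 CPM in Sham satellite glia (348 ± 38.2), with the Prrg4-led glia at 284 ± 37.4, non-myelinating Schwann cells at 195 ± 36.9 and cycling cells at 157 ± 22.9. Neurons followed at 91.3 ± 15.6 CPM, then macrophages (60.1 ± 19.4), pericytes (57.3 ± 33.0), myelinating Schwann cells (28.2 ± 7.10), fibroblasts (13.3 ± 2.96), endothelial cells (11.4 ± 3.37) and smooth muscle (7.76 ± 4.67). Satellite glia thus ranked first for Aldoc and second for Eno1, but seventh of 11 for Pfkl and last for Pfkp.

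The remaining enzymes gave little to read. Aldoa, the muscle-type aldolase, had 10 UMIs in all retained cells of the 4 libraries, 9 of them in neurons, although it is widely expressed elsewhere, and how the gene table assigns its reads was not tested. Hk2 had 345 UMIs in all and was highest in macrophages at 9.97 ± 4.62 CPM. Near-identical copies can take reads from these enzymes: Eno1-ps1 and Eno1-ps20 had 2 and 82 UMIs, Gapdh-ps1 and Gapdh-ps17 had 77 and 14, and Aldoart2 had 0, so the levels of Eno1 and Aldoa carry that uncertainty.

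Of the regulators, Pfkfb3 and Pfkfb4, which make the activator of phosphofructokinase, were low. Pfkfb4 was highest in macrophages, with 12.2 and 15.7 CPM in the CPIP libraries and 13.0 and 14.6 CPM in the Sham libraries, and the next class had 2.81 ± 1.29 CPM. These values rest on 33 macrophage UMIs. Pfkfb3 was highest in pericytes at 16.7 ± 8.74 CPM, overlapping macrophages. Pdk1, a pyruvate dehydrogenase kinase, was highest in endothelial cells at 21.3 ± 3.75 CPM and next in neurons at 13.8 ± 0.67 CPM.

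The other hypoxia targets were led by the widest range of classes. Ndrg1, known from mutations that cause a demyelinating neuropathy, had 6739 and 6316 CPM in CPIP myelinating Schwann cells and 5822 and 6207 CPM in Sham ones. It averaged 6271 ± 377 CPM there, against 2255 ± 118 in satellite glia, 1789 ± 285 in endothelial cells and 1715 ± 104 in the Prrg4-led glia. Macrophages (1398 ± 147), cycling cells (1215 ± 78.9), non-myelinating Schwann cells (1105 ± 108) and smooth muscle (1026 ± 69.2) overlapped in turn, pericytes (696 ± 217) and fibroblasts (664 ± 88.6) were lower, and neurons were last at 125 ± 26.7 CPM. Neurons thus held 2.00% of the level of myelinating Schwann cells, against 0.414% for Mbp and 0.0632% for Prx, a pair of markers of myelinating Schwann cells. Satellite glia also hold Ndrg1 and were not used as that reference. How much of the neuronal Ndrg1 is glial RNA was not tested.

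Bnip3, a mitophagy receptor, was the most neuronal of these targets, at 461 ± 20.9 CPM in neurons against 78.24 ± 10.55 in myelinating Schwann cells. Outside neurons it stood at 9.36% to 17% of the neuronal level. Its relative Bnip3l was broader, at 288 ± 16.8 CPM in neurons and 192 ± 15.7 in endothelial cells. Adm, the vasodilator peptide adrenomedullin, had 143 ± 18.0 CPM in endothelial cells, with 139 and 165 CPM in the CPIP libraries and 146 and 122 CPM in the Sham libraries. Fibroblasts averaged 147 ± 112 CPM of Adm, but with 104 and 71.7 CPM in the CPIP libraries and 98.6 and 314 CPM in the Sham libraries the value rests on Sham 2, which held 67 fibroblasts. The remaining classes ran from 53.6 ± 13.9 CPM in macrophages, 36.3 ± 10.4 in pericytes, 32.7 ± 3.77 in the Prrg4-led glia and 30.9 ± 10.2 in smooth muscle through satellite glia (21.3 ± 0.85), cycling cells (18.6 ± 6.13), non-myelinating Schwann cells (15.6 ± 2.53) and myelinating Schwann cells (9.46 ± 0.96) to neurons (2.10 ± 0.52).

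A further pair of targets was led by satellite glia. Mxi1, an antagonist of Myc, had 717 ± 38.0 CPM there against 604 ± 29.0 in the Prrg4-led glia and 46.8 ± 4.31 in neurons. P4ha1, a collagen prolyl hydroxylase, had 663 ± 27.7 CPM in satellite glia but overlapped myelinating Schwann cells at 631 ± 20.8. Its relative P4ha2 (12.0 ± 9.25 CPM in fibroblasts) and Ddit4, an inhibitor of mTORC1 (5.59 ± 1.80 CPM in endothelial cells), overlapped over all neighbouring classes. Ankrd37 was highest in smooth muscle at 46.3 ± 10.9 CPM and overlapped endothelial cells at 36.8 ± 3.57.

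Car9, the membrane carbonic anhydrase often used as a hypoxia marker, was detected with 259 UMIs in all. It reached 17.2 and 26.7 CPM in the CPIP libraries and 19.7 and 12.8 CPM in the Sham libraries of the cycling cluster, whose level of 19.1 ± 5.82 CPM was clear of the 2.64 ± 3.27 CPM of smooth muscle. That cluster also carries haemoglobin, and which of its cells hold Car9 was not tested. Macrophages and pericytes gave 0 Car9 UMIs, which allows up to 8.77 and 23.9 CPM in their shallowest libraries.

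Neurons were re-clustered alone into 17 sub-clusters, of which the 12 with at least 30 cells in every library are used here, and several genes varied between them. Ndrg1 was highest in the sub-cluster led by Penk, Pcp4 and Trpm8, the cold-sensing type by its markers, with 1003 and 882 CPM in the CPIP libraries and 923 and 759 CPM in the Sham libraries. It followed in the sub-cluster led by P2ry1, Nmu and Gstt3, which carries markers of low-threshold C fibres, at 329 ± 18.3 CPM, and was about 10 CPM in 3 sub-clusters: 10.47 ± 2.21 in the one led by Iapp, 10.3 ± 3.16 in the one led by Pkib and 10.1 ± 5.49 in the one led by Mrgprb4.

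Ldha had another order, highest in the P2ry1-led sub-cluster at a mean of 887 CPM and lowest in the Kcnv1-led one at 256 CPM. Pkm was highest in the sub-cluster led by Pvalb and Spp1, which carries markers of large neurofilament neurons, at 727 CPM, and lowest in the Iapp-led one at 166 CPM. Slc2a3 was highest in the Trpm8 sub-cluster at 324 CPM. The sub-clusters share libraries and depth, and these values are a description.

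**Figure D3:**
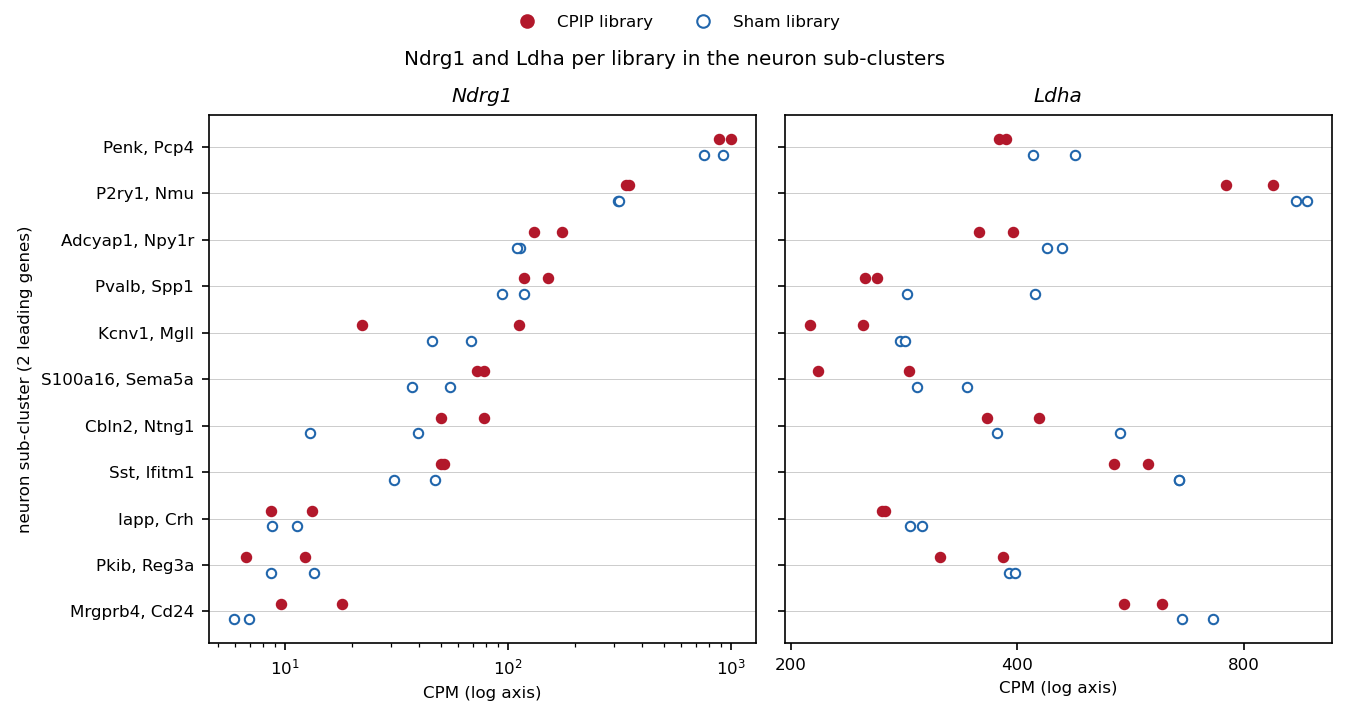
CPM on a log axis for Ndrg1 (left) and Ldha (right) in 11 of the 12 neuron sub-clusters, named by 2 leading genes, with 1 point per library (filled red, CPIP, drawn above; open blue, Sham, drawn below). Both CPIP points lie above both Sham points for Ndrg1 in 6 of the 11 and below them for Ldha in 10, and the sub-clusters of 1 library are not independent. The share over all genes was not counted.

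The comparison of CPIP with Sham asked whether these genes differ in ganglia that supply an injured limb. The UMIs of each class were added up within a library, and the sums were compared by edgeR's quasi-likelihood test with p-values adjusted over all genes tested in the class. None of the members tested passed an adjusted p of 0.05 in any of the 11 classes or in the sum of all cells, and few genes of any kind did. DESeq2 on the same sums called 1 member in 1 class, Ndrg1 in neurons, and the counts at an unadjusted p under 0.05 are given with each class. The share of genes that passed was 0% in satellite glia (12286 tested), neurons (13642), non-myelinating Schwann cells (10099) and all retained cells (15901), and it was 0.0102% in endothelial cells, 0.0143% in myelinating Schwann cells and 0.0324% in macrophages. The same held for the Prrg4-led glia (0%), fibroblasts (0%), smooth muscle (0.0353%), cycling cells (0.108%) and pericytes (0.0351%).

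**Figure D4:**
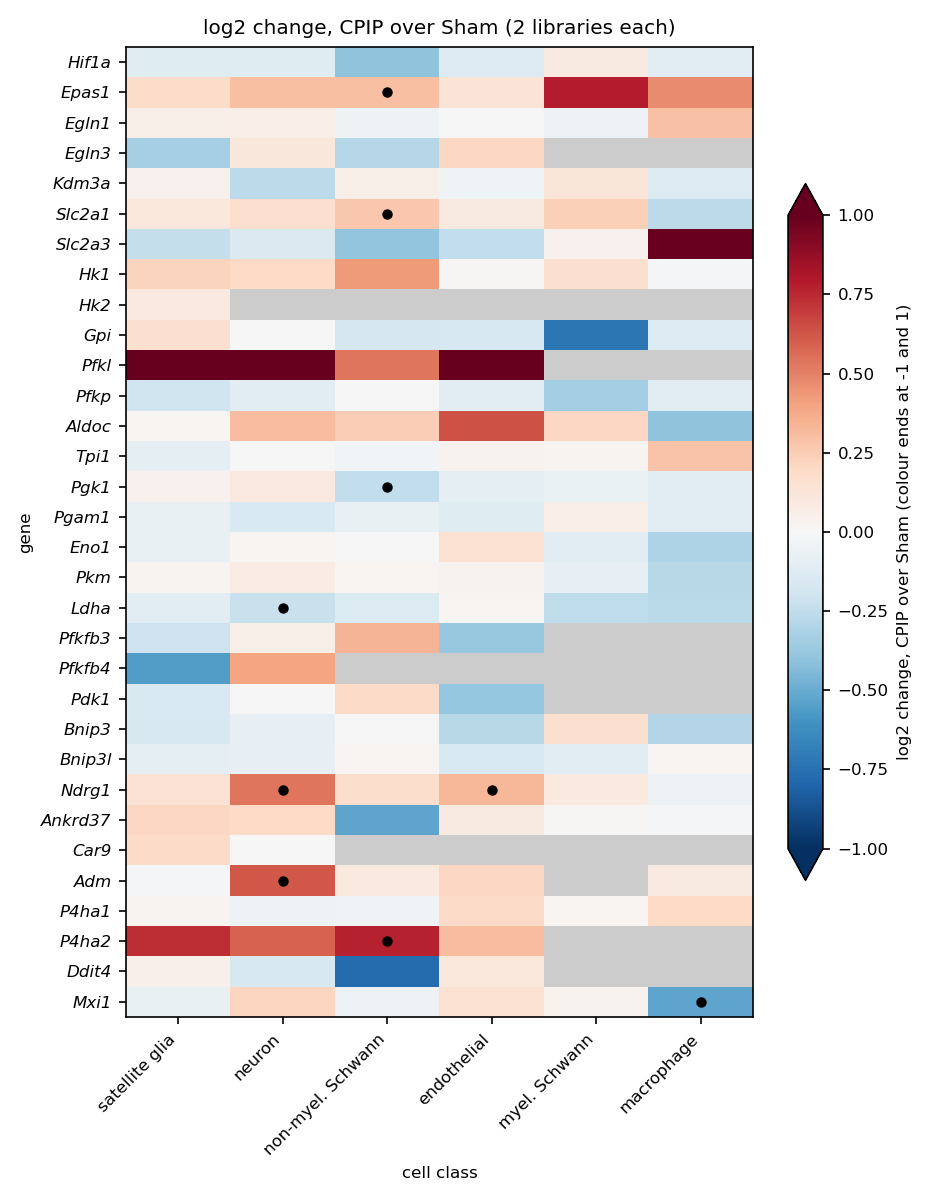
Log2 change of CPIP over Sham (colour, cut at -1 and 1) for 32 genes in the 6 classes described in full, from sums of 2 CPIP and 2 Sham libraries; grey, not tested at this depth; black dot, unadjusted p under 0.05. Dots are few and most colours are pale; the darkest cells are low genes such as Pfkl, which was highest in CPIP 2 in 10 of 11 classes.

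In satellite glia 32 of the genes were tested and 17 had a change above 0, or about the 52% of all genes that did. Their median log2 change was 0.02, against 0.01 over all genes. Both CPIP libraries lay above both Sham libraries for 4 of them and below for 7, where the shares over all genes were 15.6% and 16.4%, and 0 had an unadjusted p under 0.05, where 3.3% of all genes did. Ndrg1 had 2370 and 2377 CPM (scaled by trimmed means, as are all CPM in this comparison) in CPIP and 2141 and 2141 CPM in Sham, a log2 change of 0.15 ± 0.06 (SE, edgeR, adjusted p = 0.977). The groups did not overlap, yet the change was small. Epas1 had 315 and 284 CPM in CPIP and 246 and 280 CPM in Sham (log2 change 0.18 ± 0.10), and Bnip3 had 69.6 and 66.6 CPM in CPIP and 74.2 and 77.7 CPM in Sham (-0.16 ± 0.08). Both kept the groups apart and neither passed the test. Slc2a1 had 125 and 138 CPM in CPIP and 118 and 126 CPM in Sham, which overlap.

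The smallest unadjusted p of any member in the 11 classes was that of Ndrg1 in neurons. It had 142 and 155 CPM in CPIP neurons and 99.2 and 106 CPM in Sham neurons, from 2630 to 3511 UMIs per library. Both CPIP pools lay above both Sham pools, and the log2 change was 0.53 ± 0.08 (SE). Its unadjusted p of 0.00089 ranked 11th of 13642 genes and its adjusted p was 0.967 in edgeR's quasi-likelihood test. DESeq2 gave a log2 change of 0.52 and an adjusted p of 0.0054, in a test that called 0.111% of genes. Over the alternatives tried the adjusted p ran from 0.00076 without CPIP 1 to 1 without Sham 1, while the log2 change stayed between 0.47 and 0.59.

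Other values differed between the groups alongside Ndrg1 in neurons. The Trpm8 sub-cluster, where Ndrg1 is highest, made up 3.76% and 4.01% of CPIP neurons and 2.65% and 2.66% of Sham neurons. The P2ry1-led sub-cluster, next for Ndrg1, made up 5.61% and 4.84% of CPIP neurons and 4.11% and 4.42% of Sham neurons. The Pkib-led one, low in Ndrg1, made up 6.26% and 8.73% of CPIP neurons and 9.47% and 9.51% of Sham neurons. With each of the 12 sub-clusters held at one share in all libraries, Ndrg1 had 132 and 143 CPM in CPIP neurons. It had 118 and 108 CPM in Sham neurons, still apart but nearer. Those values are not scaled by trimmed means and leave out the smaller sub-clusters. Without the Trpm8 sub-cluster the log2 change was 0.48 ± 0.14.

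Glial RNA was followed in the same sums, since myelinating Schwann cells and satellite glia hold far more Ndrg1. The 15 markers of myelinating Schwann cells summed to 1035 and 1071 CPM in CPIP neurons and 1042 and 1006 CPM in Sham neurons, with 4 markers above and 4 below in both CPIP libraries and none at 0. The 16 markers of satellite glia summed to 1546 and 1472 CPM in CPIP neurons and 1471 and 1501 CPM in Sham neurons, with 8 above and 2 below and none at 0. Neither sum separated the groups, though more satellite glia markers lay above than below. Over all genes tested in neurons, both CPIP libraries lay above for 16.4% and below for 16%. Apoe had 45.1 and 90.1 CPM in CPIP neurons and 38.7 and 49.4 CPM in Sham neurons, which overlap. The 16 fibroblast markers summed to 135 and 173 CPM in CPIP neurons and 120 and 111 CPM in Sham neurons, with 10 above, 1 below and Slc22a6 at 0. The 7 erythrocyte markers summed to 526 and 642 CPM in CPIP neurons and 463 and 439 CPM in Sham neurons, with 5 above. The part of these in the Ndrg1 difference was not tested.

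Ldha lay the other way in neurons. It had 436 and 387 CPM in CPIP neurons and 475 and 485 CPM in Sham neurons, a log2 change of -0.22 ± 0.08 with an unadjusted p of 0.040 and an adjusted p of 0.967 in edgeR. The CPIP libraries were below the Sham libraries for Ldha in 10 of 12 sub-clusters, which share libraries and are not independent. By the same count Pgam1 and Slc2a3 were below in 8 and Kdm3a and Bnip3 in 7. Ndrg1 was above in 7 and Aldoc in 6, and the share over all genes was not counted. With the sub-cluster shares held fixed the Ldha values were 430 and 394 CPM in CPIP and 480 and 484 CPM in Sham. Ldhb, the subunit that favours pyruvate and no member of the list, had 217 and 234 CPM in CPIP neurons and 183 and 172 CPM in Sham neurons (log2 change 0.34 ± 0.08, adjusted p = 0.967 in edgeR). The 2 subunits thus lay on opposite sides without overlap, and neither passed the test.

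Of the 31 genes tested in neurons, 19 had a change above 0, against 51.5% of all genes, and their median log2 change was 0.06, against 0.01. Both CPIP libraries lay above for 5 and below for 5 (16.4% and 16% of all genes), and Ndrg1, Ldha and Adm had an unadjusted p under 0.05, where 3.91% of all genes did. Adm rested on 39 to 61 UMIs per library, with 2.50 and 2.60 CPM in CPIP neurons and 1.77 and 1.54 CPM in Sham neurons. Mxi1 had 48.0 and 52.5 CPM in CPIP neurons and 42.6 and 44.2 CPM in Sham neurons, and Aldoc had 87.6 and 115 CPM against 81.3 and 82.1 CPM. Both kept the groups apart, with log2 changes of 0.21 ± 0.09 and 0.31 ± 0.14 and an adjusted p of 0.967 in edgeR.

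Ndrg1 was also higher in both CPIP libraries of several other classes. In endothelial cells it had 1834 and 2188 CPM in CPIP and 1443 and 1748 CPM in Sham (log2 change 0.33 ± 0.12, unadjusted p = 0.019, adjusted p = 0.954 in edgeR), and in myelinating Schwann cells it had 6831 and 6459 CPM in CPIP and 6031 and 6375 CPM in Sham (0.10 ± 0.08). The groups stayed apart in both. In pericytes, which hold few UMIs, it lay the other way, with 779 and 504 CPM in CPIP and 1110 and 963 CPM in Sham, or 52 to 155 UMIs per library (log2 change -0.68 ± 0.23, adjusted p = 0.665 in edgeR). Without CPIP 1, where CPIP 2 alone stood for its group, the pericyte change was -1.05 and was called. Ndrg1 was not called in pericytes with any other library left out. Satellite glia markers moved with it there, summing to 6672 and 4723 CPM in CPIP pericytes and 7674 and 8423 CPM in Sham pericytes, with 8 of 16 below and 1 above, and their part was not tested.

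Whether the effect on Ndrg1 differs between classes was tested as an interaction with the library as a block, for the 15 pairs of the 6 largest named classes. The p-values were adjusted over the genes of each pair and not over the 15 pairs. The change in neurons exceeded that in myelinating Schwann cells by 0.40 ± 0.10 on the log2 scale (SE, adjusted p = 0.011 in edgeR), in a pair where 0.241% of 13692 genes passed. It was the only member called in the 15 pairs. The difference from satellite glia, given as satellite glia minus neurons, was -0.37 ± 0.11 (adjusted p = 0.275 in edgeR), and that of neurons from non-myelinating Schwann cells was 0.36 ± 0.10 (adjusted p = 0.471 in edgeR). The call against myelinating Schwann cells was lost without CPIP 2 (0.33), without Sham 1 (0.35) and without Sham 2 (0.40), though the difference kept its sign.

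In non-myelinating Schwann cells, 29 genes were tested, 14 had a change above 0 (50.9% of all genes) and the median was 0.00. Both CPIP libraries lay above for 5 and below for 7 (16.4% and 17.2% of all genes), and Pgk1, Epas1, Slc2a1 and P4ha2 had an unadjusted p under 0.05, where 4.01% of all genes did. Pgk1 had 149 and 150 CPM in CPIP and 173 and 183 CPM in Sham, with a log2 change of -0.25 ± 0.10. Epas1 had 102 and 120 CPM in CPIP and 90.5 and 89.3 CPM in Sham (0.30 ± 0.12). Slc2a1 had 71.6 and 75.5 CPM in CPIP and 60.3 and 61.3 CPM in Sham (0.27 ± 0.11). In all 3 the groups were apart and the adjusted p was 0.945 in edgeR. Hk1, at 37.7 and 54.6 CPM in CPIP and 34.8 and 33.7 CPM in Sham, leaned on CPIP 2.

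In endothelial cells, 17 of 29 genes tested had a change above 0 (50.9% of all genes), with a median of 0.03. Without CPIP 2 it was 8 of 29 with a median of -0.11, and without CPIP 1 it was 19 of 29 with 0.17. Both CPIP libraries lay above for 4 and below for 7 (17% and 16.9% of all genes), and Ndrg1 was the only one with an unadjusted p under 0.05 (4.65% of all genes). Slc2a3 had 98.3 and 90.5 CPM in CPIP and 112 and 112 CPM in Sham (-0.25 ± 0.11), Bnip3 had 45.7 and 44.2 CPM against 59.3 and 49.8 CPM (-0.28 ± 0.15), and P4ha1 had 229 and 265 CPM against 204 and 229 CPM (0.19 ± 0.12). Slc2a3 and Bnip3 were apart, P4ha1 was not, and none passed (adjusted p = 0.954 in edgeR).

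In myelinating Schwann cells 22 genes were tested and 14 had a change above 0 (50.1% of all genes), with 1 apart above and 2 apart below (17% and 17.2% of all genes) and 0 with an unadjusted p under 0.05 (5.34% of all genes). Ldha was below Sham there too, at 170 and 166 CPM in CPIP and 184 and 221 CPM in Sham (-0.25 ± 0.16), and Pfkp had 44.7 and 43.1 CPM in CPIP and 51.7 and 61.5 CPM in Sham (-0.35 ± 0.25). Slc2a1, at 38.2 and 68.3 CPM in CPIP and 47.6 and 40.3 CPM in Sham, overlapped.

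In macrophages 7 of 23 genes had a change above 0 (51.7% of all genes), and 9 of the 10 enzymes tested lay below 0 with a median of -0.12. The lean rests on single libraries, since without Sham 2 the count was 13 of 25 with a median over the members of 0.0062, and without Sham 1 it was 10 of 25 with -0.028, against -0.105 with all 4 libraries. Both CPIP libraries lay above for 4 and below for 3 (17.3% and 15.8% of all genes). Mxi1 had 121 and 163 CPM in CPIP and 223 and 186 CPM in Sham (-0.52 ± 0.22, unadjusted p = 0.036, adjusted p = 0.937 in edgeR), where 5.08% of all genes had an unadjusted p under 0.05. Mxi1 is highest in satellite glia, whose 16 markers summed to 3430 and 4109 CPM in CPIP macrophages and 4819 and 4881 CPM in Sham macrophages, with 8 below, 0 above and none at 0, and their part in the Mxi1 difference was not tested. Pkm had 185 and 211 CPM in CPIP and 266 and 213 CPM in Sham, Ldha had 136 and 141 CPM against 180 and 153 CPM, and Tpi1 had 174 and 172 CPM against 151 and 132 CPM. Each kept the groups apart, with 44 to 178 UMIs per library behind them.

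The smaller classes added single genes. In the Prrg4-led glia 29 genes were tested and 0 had an unadjusted p under 0.05 (3.47% of all genes). In fibroblasts 14 of 23 genes had a change above 0 (50.4% of all genes) and 1 had an unadjusted p under 0.05 (2.08% of all genes), in smooth muscle 10 of 22 (50.1%) and 1 (5.17%), in cycling cells 14 of 22 (50%) and 1 (5.56%), and in pericytes 5 of 12 (49.4%) and 1 (5.61%). In cycling cells Bnip3l had 199 and 170 CPM in CPIP and 124 and 64.2 CPM in Sham (log2 change 0.98 ± 0.27, adjusted p = 0.691 in edgeR), chosen for mention after its values were seen. The groups were apart. Erythrocyte markers, summing to 41170 and 56280 CPM in CPIP cycling cells and 22770 and 459.5 CPM in Sham ones with 5 of 7 above, moved with it. Bnip3l was called without CPIP 1 (log2 change 0.87) and without CPIP 2 (1.10), where a single library stood for the CPIP group. It was not called without Sham 1 or without Sham 2. Bpgm, a red-cell enzyme, kept the groups apart as well, at 196 and 149 CPM in CPIP and 106 and 85.1 CPM in Sham, and the part of red-cell precursors in the Bnip3l difference was not tested. Hk1 in fibroblasts, at 33.2 and 40.4 CPM in CPIP and 20.8 and 17.6 CPM in Sham, rested on 4 to 80 UMIs per library. In smooth muscle Bnip3 had 43.2 and 45.9 CPM in CPIP and 61.4 and 96.4 CPM in Sham, from 13 to 51 UMIs per library.

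In the sum of all retained cells, where fewer cells of a type and less RNA per cell cannot be told apart, 15 of 32 genes had a change above 0 (52.7% of all genes) and the median was -0.01. Both CPIP libraries lay above for 5 and below for 6 (18.5% and 17.1% of all genes), and Ldha, Slc2a3 and Hk2 had an unadjusted p under 0.05 (5.04% of all genes). Ldha had 289 and 258 CPM in CPIP and 321 and 325 CPM in Sham (-0.24 ± 0.09), and Bnip3 had 236 and 209 CPM in CPIP and 260 and 250 CPM in Sham (-0.20 ± 0.09). Both are highest in neurons, which made up 22.5% and 20.2% of retained CPIP cells and 27.4% and 25% of retained Sham cells. CPM depends on UMIs rather than cells. Neurons held 24540800 of 57169221 UMIs in CPIP 1 and 22734972 of 58283491 in CPIP 2. In Sham 1 they held 26501124 of 55778696 and in Sham 2 25156964 of 58924951. Those shares of UMIs overlap between the groups, and their part in the Ldha and Bnip3 differences was not tested. Slc2a3 had 65.4 and 65.3 CPM in CPIP and 80.8 and 72.2 CPM in Sham (-0.23 ± 0.09), and Ndrg1 had 1161 and 1308 CPM in CPIP and 1009 and 1106 CPM in Sham (0.22 ± 0.10). All 4 had an adjusted p of 0.859 in edgeR.

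Several genes were highest in CPIP 2 across classes. Pfkl had 3.29 and 16.2 CPM in CPIP 1 and CPIP 2 and 5.34 and 4.39 CPM in the Sham libraries over all cells, and CPIP 2 was its highest library in 10 of 11 classes. P4ha2 had 4.93 and 10.1 CPM in CPIP 1 and CPIP 2 and 4.63 and 4.52 CPM in Sham, again with CPIP 2 highest in 10 of 11 classes. Slc2a1 was highest in CPIP 2 in 9 classes, Hk1 in 8, Ndrg1 in 7 and Gpi in 6, and Gpi was highest in Sham 1 in the other 5 and lowest in CPIP 1 in 8. Elob, a subunit of the ubiquitin ligase that removes HIF-alpha, was high in CPIP 2 neurons, at 52.8 and 146 CPM in CPIP 1 and CPIP 2 and 54.1 and 52.7 CPM in Sham.

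**Figure D5:**
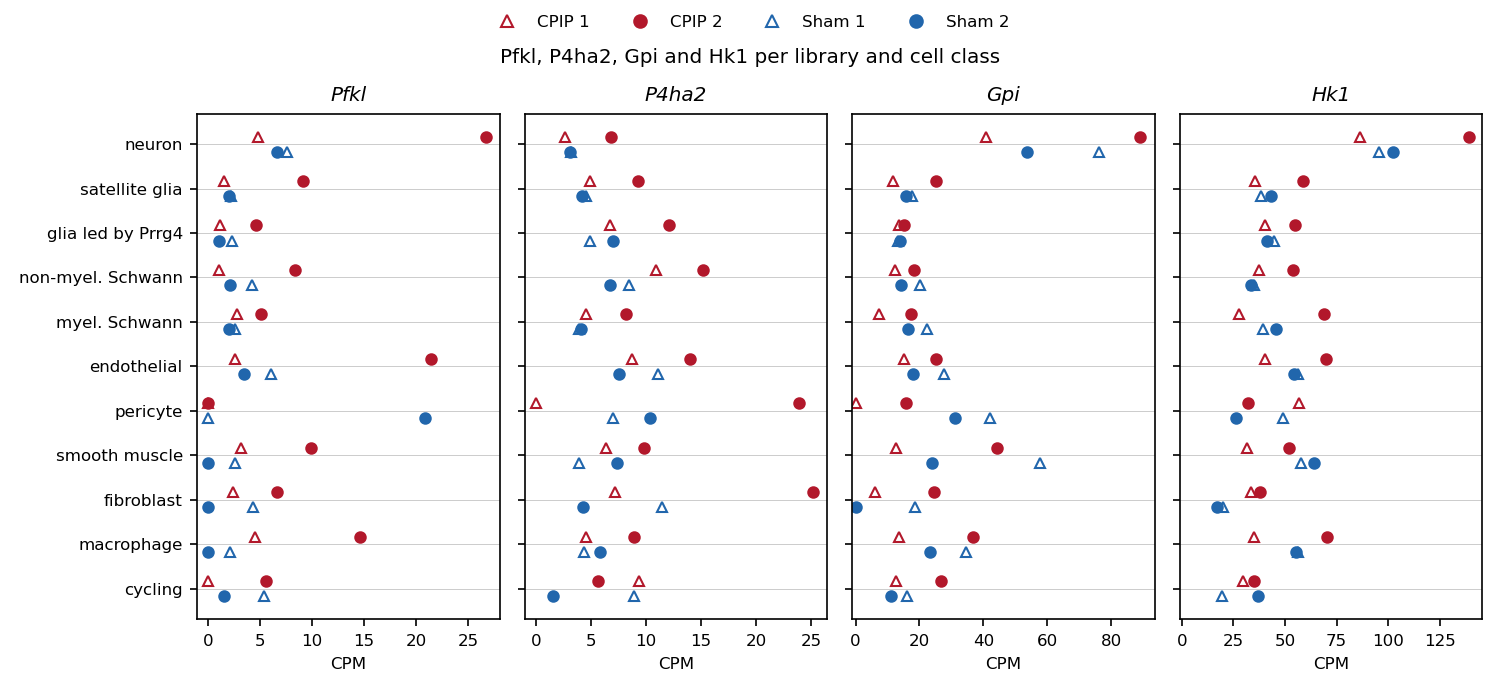
CPM per library (symbols as in the legend; CPIP drawn above Sham) of Pfkl, P4ha2, Gpi and Hk1 in 11 cell classes. The filled red point, CPIP 2, is the rightmost for Pfkl and P4ha2 in 10 of 11 rows each, for Hk1 in 8 and for Gpi in 6.

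The wider pathway was read from 3 further lists, none of which held a gene past the adjusted threshold in satellite glia or neurons. Of the further enzymes and transporters of glycolysis and lactate, 28 were tested in satellite glia, 10 had a change above 0 and the median was -0.07, and in neurons 16 of 31 lay above 0 with a median of 0.02. Minpp1, an inositol polyphosphate phosphatase, was below Sham in both, with 65.4 and 72.8 CPM in CPIP satellite glia and 84.5 and 79.3 CPM in Sham satellite glia. Mpc1, a subunit of the mitochondrial pyruvate carrier, had 120 and 99.2 CPM in CPIP satellite glia and 118 and 136 CPM in Sham ones, which overlap.

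Of further HIF pathway genes and targets, 21 of 44 lay above 0 in satellite glia (median 0.00) and 28 of 46 in neurons (median 0.06). Wsb1 had 165 and 166 CPM in CPIP satellite glia and 149 and 151 CPM in Sham ones, and Ier3 had 50.9 and 63.8 CPM in CPIP neurons and 43.9 and 50.2 CPM in Sham neurons, both apart. Immediate early genes, which respond to cell stress and dissociation, lay above 0 for 9 of 21 in satellite glia and for 21 of 22 in neurons, where the median log2 change was 0.24 and both CPIP libraries lay above for 13 and below for 0 (16.4% and 16% of all genes). Atf3, also a marker of axon injury, had 56.2 and 61.3 CPM in CPIP neurons and 42.3 and 46.9 CPM in Sham neurons (0.40 ± 0.10, adjusted p = 0.967 in edgeR). Egr1 had 76.5 and 77.7 CPM in CPIP neurons and 60.7 and 64.4 CPM in Sham neurons, whereas in satellite glia it had 1652 and 1552 CPM in CPIP and 1794 and 1983 CPM in Sham. The immediate early genes were thus higher in the same CPIP neuron sums as Ndrg1, without passing the test, and their part in its difference was not tested.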

How the data were processed

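Each of the 4 libraries came as a matrix of UMI counts per gene and cell barcode, deposited by the authors without normalization, and per the labels' protocols it was made with BD Rhapsody whole-transcriptome reagents. No source used here names the aligner, annotation or genome build. The smallest barcode held 500 UMIs, and totals are given with the results. Counting limits cover counting error only, and the replicates are pools of 3 rats, so p-values measure the spread between pools.

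Cells with at least 200 genes and at most 25% mitochondrial UMIs were kept. The doublet caller (Scrublet in scanpy 1.11.5, Python 3.11.15) marked 2, 278, 1 and 4 cells in CPIP 1, CPIP 2, Sham 1 and Sham 2, which is under 0.5% in 3 of them, so the 5% of cells with the highest scores were removed from each library, a choice made after seeing the data. Cells were clustered on 2000 variable genes without the members and pathway lists, with 30 principal components, 15 neighbours and Leiden (leidenalg 0.10.2) at resolution 1.0, and neurons again at 0.5. The rule that turned marker lists into class names was set after the clusters were seen, and a class needed 30 cells in every library to be tested.

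For each class the counts were added up within a library. After TMM scaling and a filter on low counts, the sums were compared in edgeR 4.0.16 by its quasi-likelihood test under R 4.3.3, with Benjamini-Hochberg adjustment at 0.05. DESeq2 1.42.0, other scalings and filters, and each library left out were alternatives. Differences of the CPIP effect between classes were fitted in edgeR with the library as a block and adjusted within each pair of classes. Same-numbered libraries did not deviate together (correlations between -0.30 and -0.04), so replicate numbers were not used as pairs.

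The members and lists were chosen with earlier results of these data known. Values per library are given for the 4 members with the smallest unadjusted p among those with a mean of at least 32 CPM in a class, for any member past the test, and for 8 genes across all classes. Of the pathway lists, the 2 genes with the smallest p at that level were named in satellite glia and in neurons, and other genes named were chosen after their values were seen. Low-UMI cells (6704) and 3 small clusters were not tested. Statistics were tested on simulated data. Results that name some marker genes, and 1 neuron sub-cluster, are not reported here.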

Additional observations from a re-analysis of the deposited data

Results flagged for a closer look

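The CPIP effect on Ndrg1 was larger in neurons than in myelinating Schwann cells, by 0.40 on the log2 scale, in a test of the difference itself (edgeR's quasi-likelihood test with library as a block, adjusted p = 0.011). That p-value was adjusted over the genes of this pair of classes and not over the 15 pairs tested. In neurons both CPIP libraries lay above both Sham libraries by a log2 change of 0.53, and in myelinating Schwann cells by 0.10. The shares of some neuron sub-clusters differed between the groups, which was not tested. With the shares of 12 sub-clusters held fixed, Ndrg1 had 132 and 143 CPM in CPIP neurons and 118 and 108 CPM in Sham neurons. Those values are not scaled by trimmed means and leave out the smaller sub-clusters, unlike the log2 change of 0.53. The difference between classes was not tested with those shares fixed. The difference was positive with each library left out, from 0.33 to 0.44, and its adjusted p was over 0.05 without CPIP 2, Sham 1 or Sham 2.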

How the results depend on the processing

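With 2 pools a group, the counts of members past the test depend on single libraries. Main counts were 0 in every class and in all cells. DESeq2 called 1 in neurons (Ndrg1). No filter on low counts called 2 in endothelial cells (Ndrg1, log2 change 0.32, and Pfkl, 1.33) and 1 in cycling cells (Bnip3l). Over all genes that setting called 107 of 16607 in endothelial cells and 84 of 14156 in cycling cells. The main fits called 1 and 7 there. The replicate block, for numbers that do not pair the libraries, also called 1 in cycling cells (Bnip3l) and changed no other count of members; over all genes it called 64 there, 11 in pericytes, 10 in endothelial cells, 6 in myelinating Schwann cells, 3 in the Prrg4-led glia, 2 in macrophages and 1 each in satellite glia and neurons. The crossed pairing, added after seeing the data, called 94 genes in fibroblasts (1 of them a member), 60 in smooth muscle, 59 in macrophages, 39 in myelinating Schwann cells, 25 in cycling cells and at most 3 in any other class. With 1 library left out, the lone library of a group being assumed to vary like the others, the counts ran from 0 to 4 in satellite glia, 0 to 5 in neurons, 0 to 2 in all cells and over the pairs of classes, and 0 to 1 in endothelial cells, smooth muscle, cycling cells and pericytes. The highest counts in satellite glia, neurons and all cells came without CPIP 1, where CPIP 2 alone stood for its group and Pfkl and P4ha2 were among the members called, in a fit that called 4.4% of all genes in satellite glia and 5.97% in neurons. In smooth muscle Slc2a1 was called without Sham 1 (1.57). The 15 endothelial markers there summed to 2830 and 3177 CPM in CPIP and 2714 and 1993 CPM in Sham, with 10 above, 1 below and none at 0, and their part was not tested. The members' median log2 change moved beyond its spread in 11 of the fits without 1 library and stayed in 37: it ran from -0.11 to 0.17 in endothelial cells, -0.060 to 0.10 in non-myelinating Schwann cells, -0.064 to 0.069 in myelinating Schwann cells, -0.115 to 0.0062 in macrophages and -0.31 to -0.11 in pericytes. Under the other settings it stayed in 87 and moved in 8, all in macrophages and pericytes with no change of sign. Plain library size scaling raised the members called over the pairs to 2. Leaving out 1 library left 150 values of named changes on the same side of 0 and of the threshold, took 8 past it and reversed 2, which were Elob in neurons (-0.018 to 1.45) and Slc2a1 in myelinating Schwann cells (-0.22 to 0.62), both without CPIP 2. The other settings left 330 such values as they were and took 2 past the threshold, both of Ndrg1. The class of highest level was kept for 33 members with the members in the clustering, for 31 with at most 15% mitochondrial UMIs, and for 29 with a mean of CPM per cell. With the members in the clustering, no cluster was named non-myelinating Schwann and none was led by Prrg4, Gbp2 and Ccl2. A cluster of 4806 cells led by Cdh19, Scn7a and Prrg4 was left unnamed there. That setting therefore compared only the classes it kept, for levels and for members called.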
